A study of Mus musculus with 8 samples.

Results

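The membrane mucins and galectins of the glycocalyx were followed as 9 genes: the mucins Muc1, Muc3, Muc4, Muc13 and Muc20, and the galectins Lgals2, Lgals3, Lgals4 and Lgals9. They were picked by name, through their Ensembl identifiers, and all 9 had a row among the 23318 genes of the files. RNA had been sequenced from mouse small intestinal epithelium sorted by flow cytometry on CD24, a surface glycoprotein, as one arm of work on 5-hydroxymethylcytosine in the differentiating gut. There were 4 libraries of the CD24Mid fraction (title numbers 1, 3, 5 and 7), which the submitters also call CD24low, and 4 libraries of the CD24Neg fraction (title numbers 2, 4, 6 and 8), described as biological replicates. Both fractions had been depleted of cells carrying CD45, the pan-leukocyte antigen, and of cells bound by Ulex europaeus agglutinin, a lectin for fucose-containing glycans, which mucins can carry. No treatment or engineered allele is named for either fraction, and the sources used here give no strain, sex, age or pooling of animals.

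The glycocalyx is the carbohydrate-rich coat on the apical surface of intestinal cells. Its scaffold is built of transmembrane mucins, whose long extracellular domains carry dense O-linked glycans and whose short tails reach into the cell, where some of them meet PDZ-domain adaptors and kinases. Galectins are small lectins made without a signal peptide that bind galactose-containing glycans on mucins, membrane enzymes and glycolipids, and cross-link them into lattices and rafts.

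All values are the authors' normalised expression values per gene, in which 1 sequencing read is worth about the same for every gene of a library. Of the low values of a library, 70.3% to 72.7% lay within 0.15 of a step from a ladder of even steps. Reading that step as 1 read gave an approximate value of 1 read of 0.583 to 0.697 in CD24Mid libraries and 1.07 to 1.77 in CD24Neg libraries. This gave approximate depths, in M reads, of 17.5 to 19.6 for CD24Mid libraries and 12.5 to 20.7 for CD24Neg libraries. Mitochondrially encoded genes took 8.03% to 9.10% of the summed value in CD24Mid, against 28.3% to 37.4% in CD24Neg. Cd24a, the gene of the sorting marker, was at 2246 to 3693 in CD24Mid and 287 to 563 in CD24Neg. Summed markers of absorptive enterocytes were at 23039 to 35624 in CD24Mid, against 442168 to 787936 in CD24Neg, and all 11 were lower in CD24Mid, whereas all 10 markers of crypt base stem and progenitor cells were higher in CD24Mid (their sums were 61633 to 84173 in CD24Mid libraries, against 4150.1 to 9733 in CD24Neg libraries). No marker of any list was at 0 in every library. T lymphocyte markers summed to 139 to 338 in CD24Mid, and to 8051, 481, 1395 and 6347 in CD24Neg libraries 2, 4, 6 and 8. B and plasma cell markers ran the other way, with 4 of 4 tested higher in CD24Mid and sums of 2894 to 7485 in CD24Mid libraries, against 182 to 406 in CD24Neg libraries. Leukocyte transcripts were therefore present in both fractions although CD45-positive cells had been depleted. Enteroendocrine markers were higher in CD24Mid for 6 of 8 tested (sums of 3804 to 8373 in CD24Mid libraries, against 1142 to 1649 in CD24Neg libraries). Goblet markers were lower for 5 of 8 (sums of 51075 to 77906 in CD24Mid libraries, against 183911 to 509425 in CD24Neg libraries).

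Of the 9 genes, 8 passed the filter on low values and were tested, and 7 of these differed between the fractions at an adjusted p under 0.05 in limma, an empirical Bayes linear model fitted to all genes, with Benjamini-Hochberg adjustment over all 12906 genes tested. Muc4, Muc20 and Lgals2 were higher in CD24Mid, and Muc3, Muc13, Lgals3 and Lgals4 were lower. The background was high: 68.3% of all tested genes were called, 34.3% as higher and 34.0% as lower in CD24Mid, and the ranges of the fractions lay apart in 63.8%. A count of 7 out of 8 is therefore no result about these genes as a group, and the results are the values of each gene. The median log2 fold change of the 8, CD24Mid minus CD24Neg, was -0.67, against 0.02 over all tested genes. Their median absolute log2 fold change was 1.35, against 0.75 over all tested genes. In sorted bulk material such as this, fewer cells of a type and less RNA per cell cannot be told apart.

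**Figure D1:**
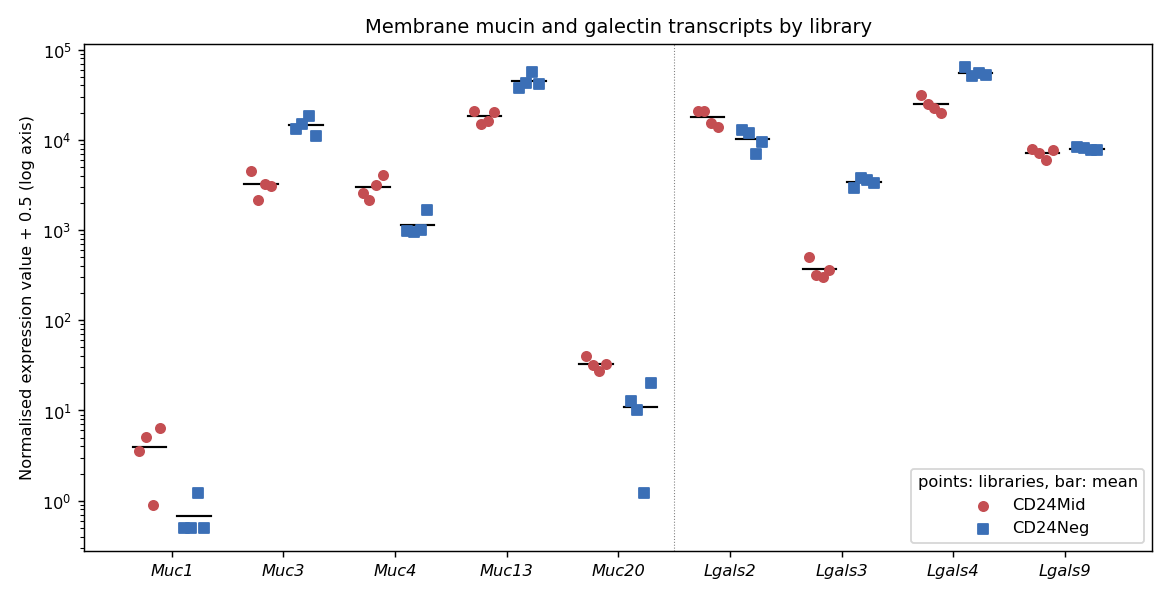
Normalised expression value plus 0.5 (log axis) of the 5 mucins and 4 galectins in each library; points are the 4 CD24Mid (left, circles) and 4 CD24Neg (right, squares) libraries of each gene, and bars are group means. Muc4, Muc20 and Lgals2 lay higher in every CD24Mid library, Muc3, Muc13, Lgals3 and Lgals4 lay lower, and the points of Lgals9 overlapped.

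Sequences upstream of the gene starts were read for all 9 genes in RefSeq (build GRCm38.p6), as 10 windows of 250 bases, since Muc13 has 2 starts. They were searched on both strands for a core of the HNF4 motif, CAAAGNNC, and for the core of the CDX motif, TTTAT; HNF4 and CDX factors are transcription factors of the intestinal epithelium. Both motifs were chosen after the sequences had been seen. The HNF4 core was found in 3 of the 10 windows and in 15.4% of 32851 windows of all genes in the table; its longer form CAAAGNNCA was likewise in 3 of the 10 windows and in 5.49% of all. The CDX core was found in 5 of the 10 windows and in 37.3% of all windows. Muc3 and Lgals2 are shown because theirs were the 2 windows with both motifs, which 5.84% of all windows held, while their transcripts differed in opposite directions. Capitals mark the motifs, as read 5′ to 3′ on the gene's strand; the 2 motifs did not overlap in either window.
Muc3, minus strand, chr5:137166047-137166296: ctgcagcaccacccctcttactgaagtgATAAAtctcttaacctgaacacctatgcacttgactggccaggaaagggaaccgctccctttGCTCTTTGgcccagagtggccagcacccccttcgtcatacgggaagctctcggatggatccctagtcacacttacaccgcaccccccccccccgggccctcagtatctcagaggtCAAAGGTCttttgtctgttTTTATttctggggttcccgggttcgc
Lgals2, minus strand, chr15:78855530-78855779: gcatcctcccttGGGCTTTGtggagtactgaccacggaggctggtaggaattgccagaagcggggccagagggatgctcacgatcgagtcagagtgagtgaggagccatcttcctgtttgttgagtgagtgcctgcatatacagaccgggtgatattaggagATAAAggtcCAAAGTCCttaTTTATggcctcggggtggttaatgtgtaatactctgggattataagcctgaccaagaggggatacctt
In Muc3 the HNF4 core began 160 and 45 bases before the start and the CDX core 222 and 26 bases before it. In Lgals2 the HNF4 core began 238 and 79 bases before the start and the CDX core 88 and 68 bases before it. These matches describe letters in the windows; binding was not measured in these libraries.

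Muc13 and Muc3 are the membrane mucins of the enterocyte brush border, and both were lower in CD24Mid. Muc13 (ENSMUSG00000022824, chromosome 16), a short mucin with EGF-like domains, was at 20951, 15104, 15988 and 20497 in CD24Mid libraries 1, 3, 5 and 7, and at 37683, 42924, 56720 and 41700.1 in CD24Neg libraries 2, 4, 6 and 8. Every CD24Mid library lay below every CD24Neg library, with the highest value in CD24Neg library 6. The log2 fold change, on the log2(value + 0.5) scale used throughout, was -1.30 (SE 0.17), or 2.46-fold lower in CD24Mid (limma, adjusted p = 7.25e-05). The call depended on scaling: under quantile normalization the log2 fold change was -0.23 (limma, adjusted p = 0.245). Gm15657, an annotated gene on the opposite strand that overlaps Muc13, had values of only 25.9 to 49.0 in CD24Mid libraries, against 38.0 to 67.4 in CD24Neg libraries.

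Muc3 (ENSMUSG00000037390, chromosome 5), the mouse counterpart of human MUC17, was at 4458, 2125, 3195 and 3079 in CD24Mid libraries 1, 3, 5 and 7, and at 13286, 14884, 18539 and 11006 in CD24Neg libraries 2, 4, 6 and 8. The fractions did not overlap, and the highest CD24Mid library reached less than the lowest CD24Neg library by more than the whole range within CD24Mid. Muc3 was 4.56-fold lower in CD24Mid (log2 fold change -2.19, SE 0.23, 95% interval -2.70 to -1.68; limma, adjusted p = 1.49e-05). It therefore differed more than Muc13, and the ratio of both in the same library, which does not depend on scaling, was compared directly. The log2 ratio of Muc3 to Muc13 averaged -2.53 ± 0.30 in CD24Mid and -1.64 ± 0.19 in CD24Neg (SD, n = 4 each), a difference of -0.89. The fractions did not overlap in this ratio (exact two-sided permutation test, p = 0.0286, the smallest that 4 against 4 libraries can give, and 0.0286 after adjustment over the 4 ratios compared).

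Muc4 and Muc20 lie side by side on chromosome 16, and both were higher in CD24Mid. Muc4 (ENSMUSG00000079620), a very large mucin whose EGF-like region is known in rat to bind the receptor ErbB2, was at 2592, 2135, 3184 and 4121 in CD24Mid libraries 1, 3, 5 and 7, and at 980, 947, 1007 and 1647 in CD24Neg libraries 2, 4, 6 and 8. All CD24Mid libraries lay above all CD24Neg libraries, and CD24Neg library 8 stood above the other 3 of its fraction. Muc4 was 2.62-fold higher in CD24Mid (log2 fold change 1.39, SE 0.23; limma, adjusted p = 0.000362).

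Muc20 (ENSMUSG00000035638), a mucin that in human cells associates with the receptor MET, was a low transcript, at 39.3, 31.5, 26.8 and 32.6 in CD24Mid libraries 1, 3, 5 and 7, and at 12.1, 9.69, 0.724 and 19.7 in CD24Neg libraries 2, 4, 6 and 8. The fractions did not overlap, but CD24Neg library 6 was near 0 and 2 CD24Neg libraries were below the filter value of 10. The gene therefore needed CD24Mid libraries to pass the filter. By the approximate value of 1 read the values of Muc20 stood for 44.5 to 56.4 reads in CD24Mid and 0.676 to 12.5 reads in CD24Neg. The fitted fold was 4.36-fold higher in CD24Mid (log2 fold change 2.13, SE 0.75, 95% interval 0.44 to 3.81; limma, adjusted p = 0.0285). Without CD24Neg library 6 the log2 fold change was 1.25, and without CD24Mid library 1 the adjusted p was 0.0642 (limma). Muc20 runs antisense to Muc4 and shares 627 exon bases with it in the GENCODE M21 annotation, 15.6% of its own exon length. The kit is not stated to keep strand, so Muc4 and Muc20 reads in that stretch cannot be told apart. The value of Muc20 as a percent of that of Muc4 was 0.792% to 1.52% in CD24Mid libraries, against 0.0719% to 1.24% in CD24Neg libraries, which overlap.

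Muc1 (ENSMUSG00000042784, chromosome 3), a mucin whose tail binds β-catenin and kinases, was barely detected. Its values were 3.10, 4.55, 0.397 and 5.86 in CD24Mid libraries 1, 3, 5 and 7, and 0, 0, 0.718 and 0 in CD24Neg libraries 2, 4, 6 and 8. A value worth 3 reads was 1.75 to 2.09 in CD24Mid libraries and 3.22 to 5.32 in CD24Neg libraries, so 3 CD24Mid libraries were above that floor and no CD24Neg library was. Muc1 did not reach the filter value in any library, so it was not tested in the main fit and no fold is given from it.

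Galectin values split in both directions as well. Lgals4 (ENSMUSG00000053964, chromosome 7), the tandem-repeat galectin that in pig enterocytes organises brush border rafts, was at 31077, 25168, 22509 and 19747 in CD24Mid libraries 1, 3, 5 and 7, and at 64035, 50697, 54769 and 52288 in CD24Neg libraries 2, 4, 6 and 8. Every CD24Mid library lay below every CD24Neg library. Lgals4 was 2.27-fold lower in CD24Mid (log2 fold change -1.19, SE 0.16; limma, adjusted p = 9.35e-05), but under quantile normalization the log2 fold change was -0.06 (limma, adjusted p = 0.715). Some mouse strains carry Lgals6, a near-identical copy that can share reads with Lgals4. Lgals6 was looked for and had no row under that symbol, so shared reads could not be examined.

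Lgals2 (ENSMUSG00000043501, chromosome 15), a small galectin that forms dimers, went the other way. It was at 20585, 20953, 15344 and 13818 in CD24Mid libraries 1, 3, 5 and 7, and at 12784, 11751, 6896 and 9335 in CD24Neg libraries 2, 4, 6 and 8. The fractions did not overlap, although CD24Mid library 7 was close to CD24Neg library 2. Lgals2 was 1.75-fold higher in CD24Mid (log2 fold change 0.81, SE 0.22; limma, adjusted p = 0.00709); tested against a fold change of 1.5 it did not pass (limma, adjusted p = 0.334). Other scalings gave larger log2 fold changes, 1.58 under quantile normalization (limma, adjusted p = 8.14e-05) and 1.28 with totals without mitochondrially encoded genes (limma, adjusted p = 0.000475). Cdc42ep1, which overlaps it on the other strand, was at 318 to 396 in CD24Mid, against 25.4 to 47.0 in CD24Neg, far below the values of Lgals2.

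Lgals3 (ENSMUSG00000050335, chromosome 14), a galectin with a flexible tail that lets it form multimers and that carries glycoproteins to the apical membrane, had the widest difference of the 8 tested genes. It was at 504, 317, 302 and 364 in CD24Mid libraries 1, 3, 5 and 7, and at 2897, 3783, 3614 and 3301 in CD24Neg libraries 2, 4, 6 and 8. The fractions were far apart, and the spread within each was small beside the gap. Lgals3 was 9.28-fold lower in CD24Mid (log2 fold change -3.21, SE 0.16, 95% interval -3.58 to -2.85; limma, adjusted p = 3.02e-07). Lgals3 is also a known macrophage transcript. The summed markers of macrophages and dendritic cells were at 355 to 647 in CD24Mid, against 224 to 502 in CD24Neg, which overlap. Of 5 tested markers 2 were higher and none lower in CD24Mid. Itgam alone averaged 308 in CD24Mid and 233 in CD24Neg, a large part of these sums. The part of macrophages in the Lgals3 values was not tested.

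Lgals9 (ENSMUSG00000001123, chromosome 11), a tandem-repeat galectin known as a ligand of Tim-3 on T cells, was at 7897, 7111, 5979.9 and 7766 in CD24Mid libraries 1, 3, 5 and 7, and at 8326, 8014, 7671 and 7761 in CD24Neg libraries 2, 4, 6 and 8. The fractions overlapped, and the CD24Neg libraries varied by only 3.70% of their mean. The difference did not pass (log2 fold change -0.15, SE 0.11, 95% interval -0.41 to 0.10; limma, adjusted p = 0.261), an interval that does not reach the size of any difference called among the other 7. Its sign turned with scaling: the log2 fold change was 0.35 under quantile normalization (limma, adjusted p = 0.0217) and 0.31 with values scaled to totals without mitochondrially encoded genes (limma, adjusted p = 0.0289).

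**Figure D2:**
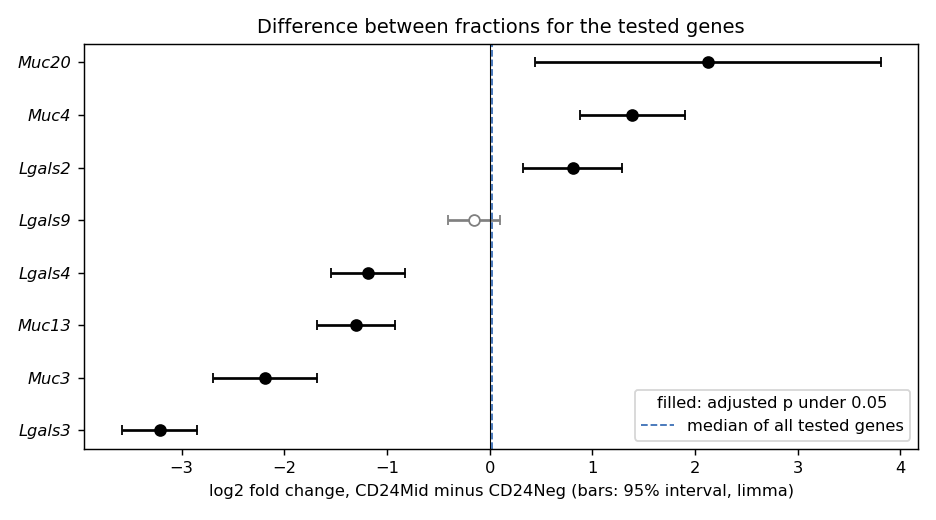
Log2 fold change, CD24Mid minus CD24Neg, of the 8 tested genes, with 95% intervals from limma; filled points passed an adjusted p of 0.05 and the dashed line is the median of all tested genes, 0.02. Muc20, Muc4 and Lgals2 lay to the right, Lgals4, Muc13, Muc3 and Lgals3 to the left, and the interval of Lgals9 crossed 0.

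Because the galectins differed in opposite directions, the make-up of the family differed between fractions. The log2 ratio of Lgals2 to Lgals4 averaged -0.48 ± 0.15 in CD24Mid and -2.48 ± 0.37 in CD24Neg (SD, n = 4 each), a difference of 2.0. The log2 ratio of Lgals3 to Lgals4 averaged -6.06 ± 0.25 in CD24Mid and -4.03 ± 0.31 in CD24Neg, a difference of -2.03. Neither ratio overlapped between fractions. For Lgals2 to Lgals4 this follows from the separation of both genes in opposite directions, so its value is a description and no test of it is given. For Lgals3 to Lgals4, whose genes were both lower in CD24Mid, the exact two-sided permutation test gave p = 0.0286 (n = 4 each), and 0.0286 after adjustment over 4 ratios. The fourth ratio, Muc1 to Muc13, differed by 3.65 on the log2 scale with the same p in the exact permutation test, but its CD24Neg values were set by the pseudocount.

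**Figure D3:**
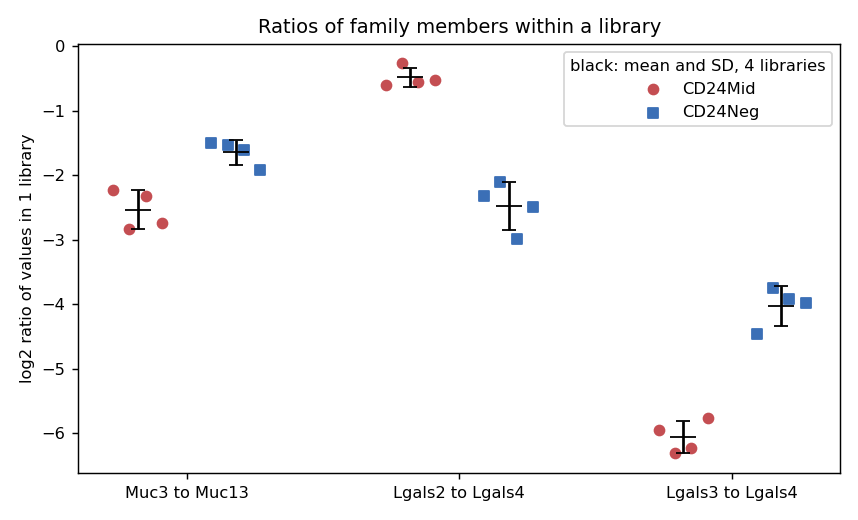
Log2 ratio of 2 family members within a library, for Muc3 to Muc13, Lgals2 to Lgals4 and Lgals3 to Lgals4; points are libraries (CD24Mid circles on the left, CD24Neg squares on the right of each pair) and black bars are the mean and SD of 4 libraries. In all 3 ratios the fractions lay apart, with Lgals2 to Lgals4 higher in CD24Mid and the other 2 ratios lower.

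Levels of different genes were set side by side only per kilobase of exon, with exon lengths from GENCODE M21. In CD24Mid the order of the mean values per kilobase was Lgals2 (29856), Lgals4 (10637), Muc13 (5969), Lgals9 (3364), Muc3 (1654), Muc4 (256), Lgals3 (200.1), Muc20 (8.08) and Muc1 (1.48). Each neighbour in that order had a range apart from the next, except Muc4 and Lgals3. In CD24Neg the order per kilobase was Lgals4 (23951), Lgals2 (17216), Muc13 (14732), Muc3 (7426), Lgals9 (3717), Lgals3 (1829), Muc4 (97.4), Muc20 (2.62) and Muc1 (0.0765), and neighbours overlapped in range for Lgals2 and Muc13 and for Muc20 and Muc1. The annotated Muc3 model used here, of 1943 bases, is shorter than the RefSeq gene, so its rank is uncertain.

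Per kilobase, Lgals2 made up 65.4% to 71.1% of the 4 galectins in CD24Mid libraries and 28.5% to 41.8% in CD24Neg libraries. Lgals4 made up 21.8% to 25.7% in CD24Mid, against 46.1% to 57.9% in CD24Neg. Lgals3 was a small part in both, 0.343% to 0.549% in CD24Mid, against 2.85% to 4.76% in CD24Neg. Among the mucins Muc13 held the largest share everywhere, 73.2% to 79.5% in CD24Mid, against 64.2% to 70.3% in CD24Neg. Muc3 held 17.5% to 24.4% in CD24Mid, against 29.0% to 35.4% in CD24Neg, and Muc4 held 2.34% to 4.03% in CD24Mid, against 0.303% to 0.717% in CD24Neg. As a share of the summed value of all nuclear genes, the 5 mucins took 0.228% ± 0.0385 in CD24Mid and 0.406% ± 0.0539 in CD24Neg, and the 4 galectins took 0.464% ± 0.0673 in CD24Mid and 0.522% ± 0.0650 in CD24Neg (SD, n = 4 each). The mucin shares did not overlap between fractions, and the galectin shares did.

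**Figure D4:**
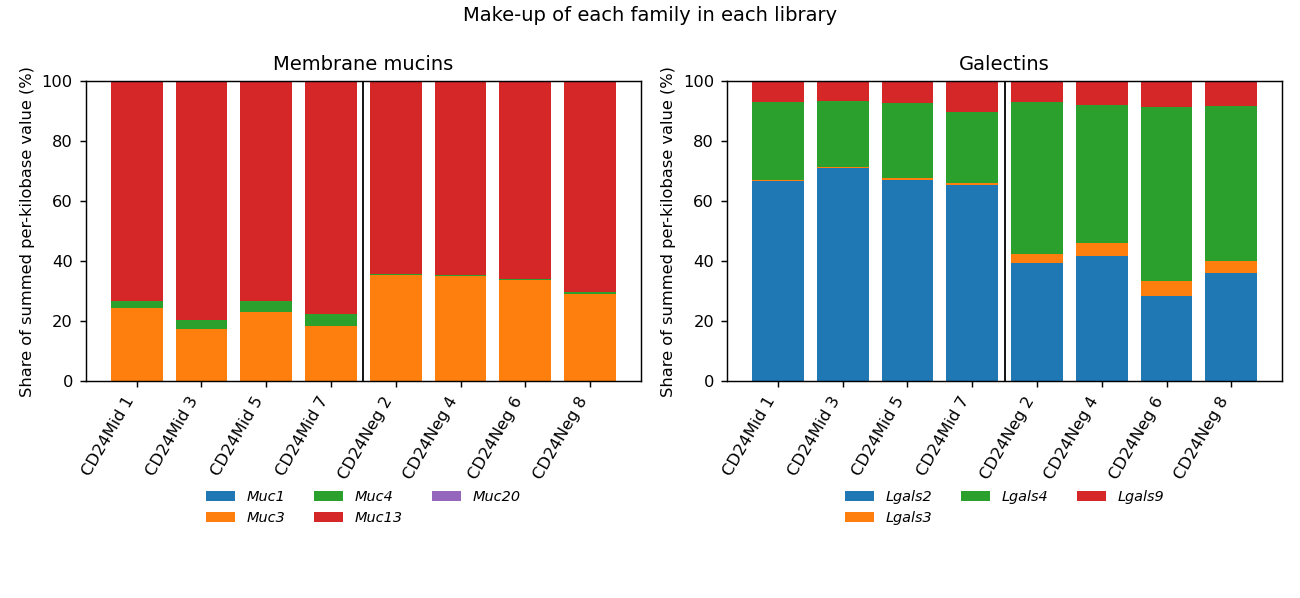
Share of each gene in the summed value per kilobase of its family (percent, stacked to 100) in each of the 4 CD24Mid libraries (left of the line) and 4 CD24Neg libraries (right). Lgals2 filled most of the galectin bars in CD24Mid and Lgals4 the largest part in CD24Neg; Muc1 and Muc20 are too small to be seen.

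Some values moved together with the fractions without being part of the families. The marker sums of enterocytes, stem and progenitor cells, goblet cells, B and plasma cells, T lymphocytes and enteroendocrine cells are given above, as is the mitochondrial share. All had ranges that lay apart between the fractions, and their part in the differences of the 7 called genes was not tested. Without CD24Neg libraries 2 and 8, which had the highest T lymphocyte marker sums, all 8 tested genes stayed on the same side of the threshold, with log2 fold changes of -2.44 for Muc3, 1.56 for Muc4, -1.48 for Muc13, 3.19 for Muc20, 0.93 for Lgals2, -3.37 for Lgals3, -1.14 for Lgals4 and -0.16 for Lgals9. CD24Mid libraries 1 and 3 lay closer to each other than to libraries 5 and 7, with a median absolute log2 difference over genes of 0.179 between 1 and 3 and 0.12 between 5 and 7, against 0.242 to 0.285 across. CD24Neg libraries showed no such grouping, with 0.256 between 2 and 4 and 0.26 between 6 and 8, against 0.226 to 0.334 across. Because of the grouping in CD24Mid, differences were also taken within title numbers 1 to 4 and within 5 to 8. They were -2.19 and -2.19 for Muc3, 1.29 and 1.49 for Muc4, -1.18 and -1.43 for Muc13, and 1.65 and 2.60 for Muc20. For the galectins they were 0.76 and 0.86 for Lgals2, -3.05 and -3.38 for Lgals3, -1.03 and -1.34 for Lgals4, and -0.12 and -0.18 for Lgals9. The sign was the same in both sets for all 8 genes.

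The transcripts whose profile over the 8 libraries was nearest to each tested gene were found by the root mean square difference of centred log2 values. For Muc3 these were Slc26a3 (0.127) and Abhd3 (0.153), and for Muc13 they were Snx25 (0.101) and Mgat3 (0.110). Muc4 was nearest to Ints2 (0.148) and Gcfc2 (0.166). Muc20 was nearest to Rps2-ps10 (0.113), a ribosomal protein pseudogene whose reads are uncertain, and Fmnl3 (0.320). Lgals2 had Alg3 (0.111) and Krt18 (0.111), and Lgals3 had Ehbp1l1 (0.0889) and Lipe (0.117). The closest matches of all were those of Lgals4 to Zfyve21 (0.0461) and Atg4d (0.0510), and those of Lgals9 were Ap2a1 (0.0546) and Dpp3 (0.0658). The median over all tested genes ran from 0.491 for Lgals9 to 1.66 for Lgals3.

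Genes that make, carry, bind or cut these proteins were read from 10 lists. Counted once each, 85 of the listed genes were tested and 62 were called (72.9%), 11 higher and 51 lower in CD24Mid, beside 34.3% and 34.0% of all tested genes.

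Other mucin and galectin genes came first. Of the other membrane mucins and mucin-like proteins, 2 were tested and both were higher in CD24Mid: Podxl, a sialomucin, averaged 13.8 ± 2.45 in CD24Mid and 3.02 ± 1.86 in CD24Neg (SD, n = 4 each), and Ovgp1, a secreted oviduct glycoprotein, averaged 29.2 ± 6.62 in CD24Mid and 7.19 ± 1.05 in CD24Neg. Both were low, and Podxl passed the filter through CD24Mid alone, as did Ovgp1. Among gel-forming mucins and goblet cell genes 6 of 8 tested were lower and none higher, and their median log2 fold change was -2.18. All of the tested genes but Muc6 are also on the goblet marker list. This count and the goblet sums are therefore not separate observations. Muc6, one of the lower genes, was low, at 6.15 ± 4.22 in CD24Mid and 47.9 ± 13.8 in CD24Neg (SD, n = 4 each), and needed CD24Neg libraries to pass the filter. Muc2, the mucin of the intestinal gel, was at 8640.2, 8196, 6179.7 and 5817 in CD24Mid and at 44948, 60627, 19335 and 24004 in CD24Neg, 4.72-fold lower (limma, adjusted p = 0.000183). Zg16, a lectin of the mucus, was 8.13-fold lower (limma, adjusted p = 6.98e-05) and Clca1, a mucus metalloprotease, 4.68-fold lower (limma, adjusted p = 1.77e-05), while Agr2, a disulfide isomerase for mucins, was not called (log2 fold change 0.43; limma, adjusted p = 0.205).

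Of 4 other galectins tested, 1 was higher, 1 lower and 2 were not called. Lgals12, a galectin best known from fat cells, was at 189, 243, 237 and 199 in CD24Mid and at 29.0, 36.6, 23.2 and 49.6 in CD24Neg. It was 6.40-fold higher in CD24Mid (limma, adjusted p = 5.41e-06), with no overlap. Lgals8, a tandem-repeat galectin that senses damaged endosomes, averaged 562 ± 35.8 in CD24Mid and 1573 ± 214 in CD24Neg (SD, n = 4 each), 2.78-fold lower (limma, adjusted p = 2.1e-06). Lgalsl, a galectin-related protein, was not called (log2 fold change -0.30; limma, adjusted p = 0.115).

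Under the main scaling, enzymes that build the glycans were lower more often than higher. Of 17 tested genes for the initiation and cores of mucin-type O-glycans, 2 were higher, 8 lower and 7 not called (median log2 fold change -0.34). Galnt6, a starter enzyme, was 2.52-fold lower in CD24Mid (limma, adjusted p = 6.02e-06), and Gcnt4, which branches O-glycans, 2.33-fold lower (limma, adjusted p = 9.71e-05). B3gnt6, the core 3 synthase, was 9.49-fold lower (limma, adjusted p = 7.31e-05), but its values were only 2.38 ± 0.926 in CD24Mid and 26.6 ± 7.34 in CD24Neg (SD, n = 4 each), so it passed the filter through CD24Neg alone. Galnt12, another starter enzyme, was 1.68-fold higher in CD24Mid (limma, adjusted p = 0.0121).

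Of 13 tested genes for N-glycan branching and galactosylation, 2 were higher, 9 lower and 2 not called (median log2 fold change -0.69). The galactosyltransferase genes B4galt5, B4galt4 and B4galt1 were 3.91-fold, 2.76-fold and 1.91-fold lower in CD24Mid (limma, adjusted p = 2.96e-06, 4.99e-06 and 6.61e-06). St6gal1, which caps galactose with sialic acid and is known to reduce binding of several galectins, was at 113, 121, 100.5 and 139 in CD24Mid and at 18.7, 6.08, 6.50 and 6.31 in CD24Neg. It was higher in every CD24Mid library (limma, adjusted p = 9.3e-06). As 3 of the 4 CD24Neg libraries were below the filter value of 10, St6gal1 needed CD24Mid libraries to pass the filter. Its fitted fold of 13.4 rests on few reads in CD24Neg, where 3 reads are worth 3.22 to 5.32.

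The list drawn up for brush border glycoproteins of galectin-containing rafts was lower in CD24Mid throughout, 10 of 10 tested, with a median log2 fold change of -3.87. Whether each of these proteins lies in such rafts was not examined. Lct, lactase, was at 478, 306, 297 and 385 in CD24Mid and at 24721, 46529, 57607 and 28158 in CD24Neg. Cubn, the cubilin receptor, averaged 51.0 ± 4.15 in CD24Mid and 8326 ± 4468 in CD24Neg, and Mep1a, a meprin subunit, 283 ± 67.5 in CD24Mid and 3819 ± 648 in CD24Neg (SD, n = 4 each). The log2 fold changes were -6.68 for Lct, -7.18 for Cubn and -3.76 for Mep1a (limma, adjusted p = 1.8e-07, 2.3e-07 and 2.39e-07). Lct, Sis (sucrase-isomaltase) and Alpi (alkaline phosphatase) are also on the enterocyte marker list, so this count and the enterocyte sums are not separate observations.

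Of 10 tested genes for adhesion between microvilli and for PDZ partners of mucin tails, 2 were higher and 8 lower in CD24Mid, and the median log2 fold change was -2.13. Pdzk1, a PDZ scaffold of the brush border, was at 26, 38.7, 18 and 26.4 in CD24Mid and at 2917, 5403, 7501 and 4116 in CD24Neg. Its log2 fold change of -7.45 (limma, adjusted p = 1.75e-07) went beyond that of any mucin or galectin above. Cdhr2, the protocadherin that links microvilli, was 11.5-fold lower (limma, adjusted p = 3.02e-07) and Anks4b, a scaffold of the same complex, 4.56-fold lower (limma, adjusted p = 2.39e-07). Cftr, the chloride channel that shares PDZ partners with Muc3, was 1.94-fold higher in CD24Mid (limma, adjusted p = 0.00486). The other gene counted as higher, Slc9a3r2, was low, at 16.7 ± 5.21 in CD24Mid and 5.18 ± 3.69 in CD24Neg (SD, n = 4 each). It needed CD24Mid libraries to pass the filter, and its call rests on few reads in CD24Neg.

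Signalling partners of mucin tails and EGF-like domains were split, with 1 of 9 tested genes higher, 4 lower and 4 not called (median log2 fold change -0.27). Egfr was 2.08-fold higher in CD24Mid (limma, adjusted p = 0.000226), while its relatives Erbb3 and Erbb2 were 2.09-fold and 1.85-fold lower (limma, adjusted p = 3.59e-05 and 7.65e-05). Src, a kinase that phosphorylates the Muc1 tail, was 2.39-fold lower (limma, adjusted p = 4.56e-06). Of 5 tested sheddases, proteases that can release mucin ectodomains, only Mmp14 was called, 3.39-fold higher at 490.1 ± 24 in CD24Mid and 149 ± 46.2 in CD24Neg (SD, n = 4 each; limma, adjusted p = 1.95e-05). Adam10 and Bace2 were not called, with log2 fold changes of 0.41 (limma, adjusted p = 0.0944) and -0.28 (limma, adjusted p = 0.384).

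Of 7 tested genes for binding and secretion partners of galectin-3, 5 were lower, none higher and 2 not called (median log2 fold change -0.70). Slc3a2, the CD98 heavy chain that galectin-3 binds, was 3.33-fold lower in CD24Mid (limma, adjusted p = 4.25e-06). Tsg101, an ESCRT protein, was 1.74-fold lower (limma, adjusted p = 2.43e-05) and Mcoln1, a lysosomal channel, 2.06-fold lower (limma, adjusted p = 2.59e-05). Itgb1, an integrin chain, had a log2 fold change of 0.07 and was not called (limma, adjusted p = 0.562).

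**Figure D5:**
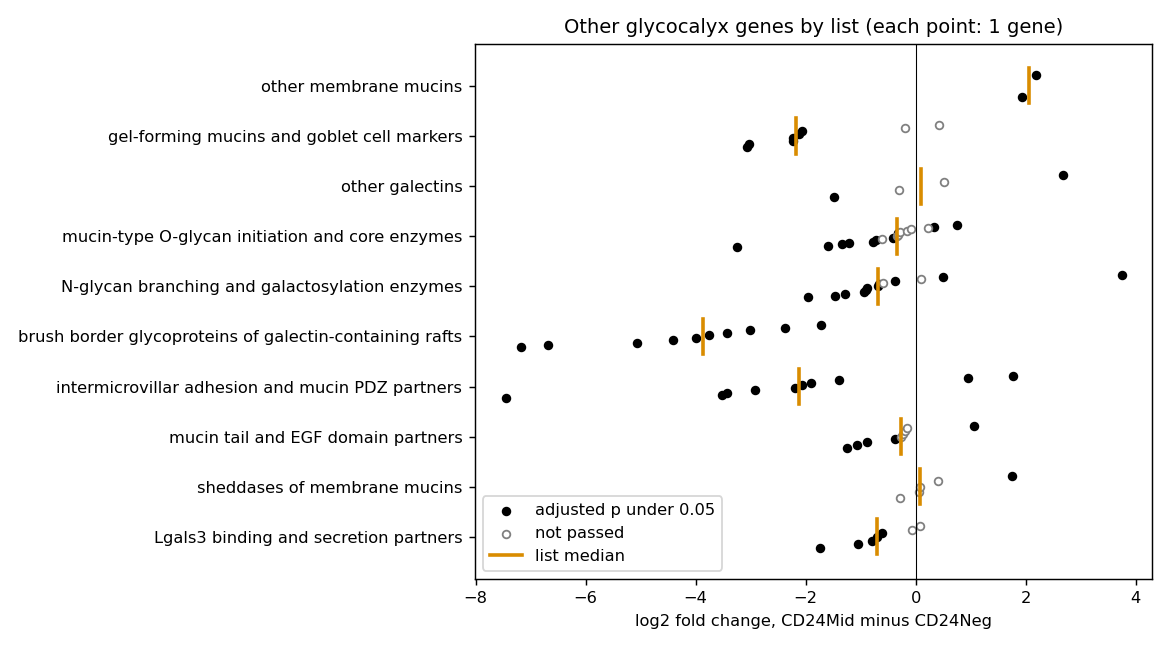
Log2 fold change, CD24Mid minus CD24Neg, of each tested gene in the 10 lists (points; filled where the adjusted p was under 0.05) with each list's median (bar). The listed brush border glycoproteins all lay left of 0, with a median of -3.87. The other lists but other membrane mucins held genes that were not called or that lay on both sides.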

How the data were processed

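RNA of flow-sorted CD24Mid and CD24Neg cells had been made into libraries with TruSeq chemistry, per the labels' protocols. The authors deposited signal: normalised expression estimates, 1 per gene and library, per the file headers. Bowtie 0.12.8 and the build NCBIM37 are named in the submitters' processing notes; the estimation tool's version and the annotation release were not given in the sources used. Only 70.3% to 72.7% of low values lay within 0.15 of a step from a ladder of even steps, whose step and offset were fitted to these values. Whole reads were therefore not restored and no count model was used. Since the values were signal, the branch of the design for normalised values applied.

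Genes at 10 or more in at least 4 libraries were kept, each library was divided by its median ratio to the geometric mean, and limma 3.58.1 was run on log2(value + 0.5) (R 4.3.3, trended and robust variance, no covariates), with Benjamini-Hochberg adjustment at 0.05. Ratios used exact permutation tests in scipy 1.17.1. The fit was tested on simulated data. Symbols, exon lengths and overlaps came from GENCODE M21, which matched 21223 of the 23318 identifiers. The 9 genes, the lists and the tests were chosen with earlier results of these data known. Named were all 9 genes, up to 3 genes of each list by adjusted p plus 1 in a direction these missed, and the 2 nearest profiles of each tested gene. Alternatives were other scalings, filters, pseudocounts, limma settings and left-out libraries; a batch term for title numbers 1 to 4 and 5 to 8 was added after seeing the data.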

Additional observations from a re-analysis of the deposited data

Results flagged for a closer look

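Of 26 groups of 4 libraries examined for a single library far from the others, 2 were flagged, and chance flags about 1 in 20 such groups. Muc4 in CD24Neg library 8 had a value of 1647, above the 947 to 1007 of the other 3 CD24Neg libraries and below all CD24Mid libraries. Muc1 in CD24Neg library 6 had a value of 0.718 while the other 3 CD24Neg libraries were at 0, and 0.718 is below the value of 1 read there.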

How the results depend on the processing

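Muc3, Muc4 and Lgals3 kept their direction and call under all 21 alternatives run for each. Under quantile normalization the log2 fold change of Muc13 was -0.23 (limma, adjusted p = 0.245) and that of Lgals4 was -0.062 (limma, adjusted p = 0.715), leaving 2 genes called lower; Lgals2 was larger, at 1.58, and also at 1.24 and 1.28 under the 2 scalings to totals named next. Lgals9 turned to 0.35 under quantile normalization, 0.28 when scaled to totals without the 20 most abundant genes and 0.31 without mitochondrially encoded genes (limma, adjusted p = 0.0217, 0.0501 and 0.0289). These last 2 scalings moved the median of all genes to 0.44 and 0.48, and called 6497 genes higher against 2842 lower (69.6% higher) and 6695 against 2723 (71.1% higher), where the centred values gave 4423 against 4386 (50.2%); the cause was not tested. Against a fold change of 1.5, 2430 genes were higher and 2360 lower, 1 of the 9 genes was called higher, and Lgals2 (0.81; limma, adjusted p = 0.334) and Muc20 (2.13; limma, adjusted p = 0.0913) were not called. Muc20 was also not called without the filter (2.13; limma, adjusted p = 0.0937), nor without CD24Mid library 1, 3 or 7 (limma, adjusted p = 0.0642, 0.0558 and 0.0546), and could not be tested at a filter of 50. Muc1, testable only without the filter, then had an adjusted p of 0.0299 in limma, at a size set by the pseudocount.

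Leaving out 1 library at a time, log2 fold changes ran from -2.36 to -2.0 for Muc3, 1.23 to 1.57 for Muc4, -1.39 to -1.19 for Muc13, 1.25 to 2.59 for Muc20 (3.19 without CD24Neg libraries 2 and 8 together), 0.63 to 0.93 for Lgals2, -3.37 to -3.11 for Lgals3, -1.30 to -1.08 for Lgals4 and -0.19 to -0.06 for Lgals9. The batch term changed no call of the 8 tested genes. No paired analysis was run. The labels pair no libraries across the fractions. The title numbers are odd in CD24Mid and even in CD24Neg, so the fractions share none. Some marker sums peaked at adjacent numbers: Paneth sums were highest in CD24Mid library 3 (3654) and CD24Neg library 4 (4443). T lymphocyte sums were highest in CD24Mid library 1 (338) and CD24Neg library 2 (8051). Enterocyte sums were highest in CD24Mid library 1 (35624) and CD24Neg library 6 (787936), which are not adjacent. Whether adjacent numbers share a preparation was not tested, and a block on them was not run. Depth limits Muc1 and Muc20, whose CD24Neg values stand for few reads, and depths estimated from steps cover counting error only. P-values measure the spread between libraries; nothing in the labels ties a library to an animal.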
